A study of Mus musculus with 6 samples.

Results

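Bone morphogenetic protein (BMP) signalling and the Id genes it induces were followed in cultured cerebellar granule cells (GCs) after KD of YTHDF2, a reader protein of the m6A mark on mRNA. The 10 genes examined were the ligands Bmp2, Bmp4 and Bmp7, the type I receptor Bmpr1a, the inhibitory Smads Smad6 and Smad7, and Id1, Id2, Id3 and Id4. They were chosen by name, and all 10 were found among the 53421 genes of the deposited table through the GRCm38 annotation. All 10 passed the filter on low counts, which left 17214 genes for the test.

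The cells were dissociated from the cerebella of wildtype C57BL/6 pups, labelled as postnatal day 8. They were given lentivirus with a hairpin targeting Ythdf2 in 3 libraries (shYthdf2) and with a control hairpin in the other 3 (shCtrl). Infected cells of both groups were selected with puromycin. Library names carry the numbers 1, 2 and 4 within a group. The sample titles give the groups the other way round from the library names, and the names were followed here. If the titles were right, every direction below would be inverted. Ythdf2 was lower in all 3 libraries that the names call KD than in any other, with the counts given below. The shYthdf2 libraries carry a single hairpin, so effects of that hairpin on other transcripts cannot be told apart from loss of YTHDF2.

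BMP ligands bind paired type I and type II serine/threonine kinase receptors, which phosphorylate Smad1, Smad5 and Smad9. These enter the nucleus with Smad4 and switch on target genes, among which the Id genes are the best known. Id proteins have a helix-loop-helix but no DNA-binding region, and they hold E proteins away from bHLH transcription factors such as Atoh1 and Neurod1. Smad6 and Smad7 are induced by the same signal and damp it. In the developing cerebellum, BMPs act on the rhombic lip where granule cell progenitors arise, and Bmp2 and Bmp4 are known to push these progenitors out of the cell cycle.

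Ythdf2 itself had 501, 402 and 501 normalized counts (counts scaled to a common library size) in shYthdf2 libraries 1, 2 and 4 and 618, 841 and 628 in those of shCtrl. The groups did not overlap (p = 0.1 by a two-sided exact permutation test, which can give no smaller value with 3 against 3), and the adjusted p-value of edgeR's quasi-likelihood test was 0.125. Total counts ranged from 17246821 to 21546595 per library. Libraries 1 and 4 of a group lay close together, with a median absolute log2 difference of 0.06 over 11163 well-counted genes in either group. Library 2 differed from libraries 1 and 4 of its group by 0.25 in shYthdf2 and by 0.29 and 0.30 in shCtrl, whereas libraries number 2 of the opposite groups differed by 0.16. Nothing in the labels says what sets number 2 apart. The methods of the study call the libraries biological replicates, while the labels name no separate cultures.

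None of the 10 genes passed an adjusted p-value of 0.05 in edgeR's quasi-likelihood test, where 0.604% of all genes tested did. An unadjusted p under 0.05 was reached by 1 of the 10, Id4, and by 20.1% of all genes. The fitted level was higher in shYthdf2 for 8 of the 10 and lower for Bmp2 and Smad7, and the median log2 ratio (shYthdf2 over shCtrl, as fitted by edgeR, with its standard error, SE) was 0.16, against 0.01 over all genes tested. Values of shYthdf2 and shCtrl did not overlap for Id1 and Id4, which is 2 of 10, against 26.0% of all genes. The other 8 genes had overlapping groups. In bulk RNA, fewer cells of a type and less RNA per cell cannot be told apart.

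**Figure D1:**
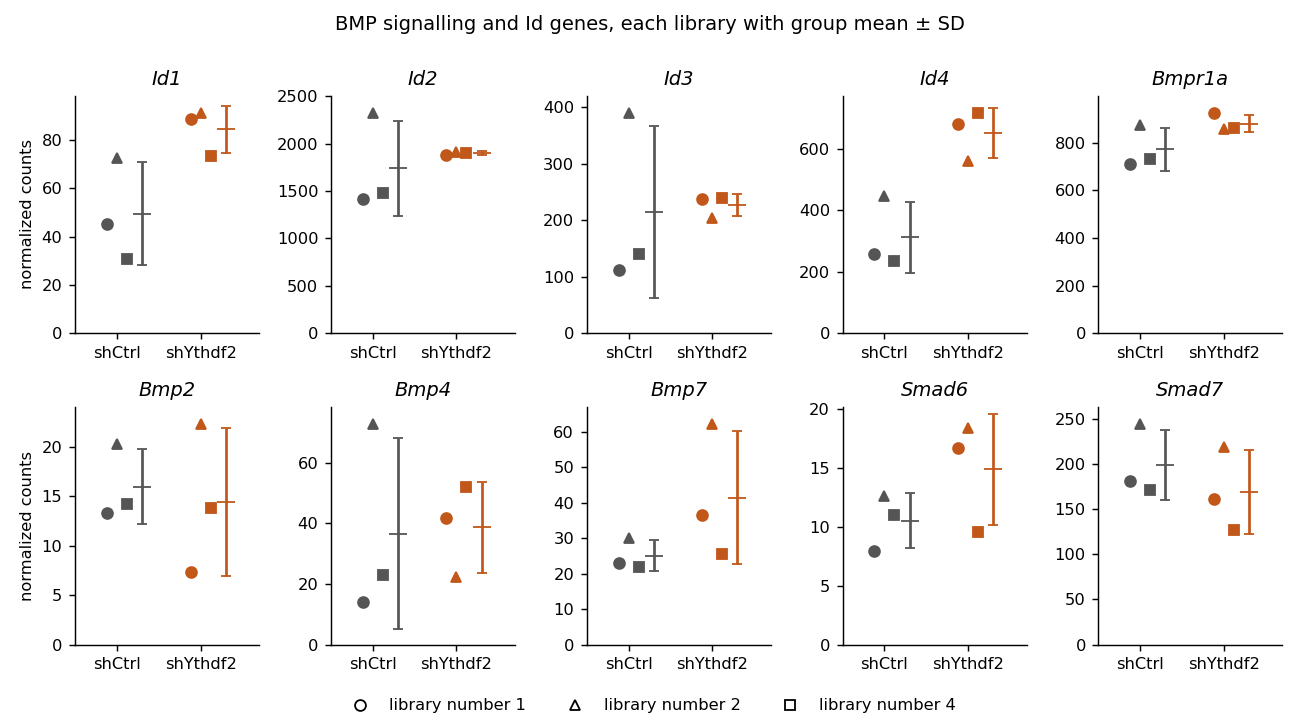
Normalized counts of the 10 genes in every library (vertical axes, linear from 0), with shCtrl in grey and shYthdf2 in orange. The marker shape gives the library number, and bars to the right of the points are the mean ± SD (n = 3). For Id4 the shYthdf2 libraries sit between 559 and 715 and the shCtrl libraries between 235 and 446. For Id2, Id3, Bmp4 and Smad7, shCtrl library 2 is the highest of the 6.

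Id4 had the largest difference of the 10. The gene (ENSMUSG00000021379) lies on chromosome 13 of GRCm38 from 48261228 to 48266026 and encodes an Id protein found in neural progenitors and astrocytes. It had 681, 559 and 715 normalized counts in shYthdf2 libraries 1, 2 and 4 and 256, 446 and 235 in the shCtrl libraries. All shYthdf2 libraries were higher than all shCtrl libraries, and the library numbered 2 was the lowest in shYthdf2 but the highest in shCtrl. The shYthdf2 mean was 652 ± 81.9 (SD, n = 3) and the shCtrl mean 312 ± 116 (SD, n = 3), so the shYthdf2 libraries held 209% of the shCtrl level. Its log2 ratio was 1.06 (SE 0.25), and edgeR's test gave an unadjusted p of 0.00361 and an adjusted p = 0.0913. The log2 differences between libraries with the same number were 1.41, 0.33 and 1.60 for numbers 1, 2 and 4. DESeq2 gave an adjusted p = 0.00301. Over the 15 alternatives tried, the log2 ratio was 0.89 or more and the adjusted p 0.345 or less.

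Id1 was the other gene of the 10 with separate groups. It lies on chromosome 2 from 152736251 to 152737410 and encodes an Id protein that is a standard readout of BMP signalling, abundant in endothelial cells and astrocytes. It had 88.9, 91.1 and 73.2 normalized counts in shYthdf2 libraries 1, 2 and 4 and 45.2, 72.7 and 30.8 in those of shCtrl. The gap between the groups was narrow, from 72.7 in shCtrl library 2 to 73.2 in shYthdf2 library 4. On average it had 84.4 ± 9.75 (SD, n = 3) in shYthdf2 and 49.6 ± 21.3 (SD, n = 3) in shCtrl, with a log2 ratio of 0.76 (SE 0.33; adjusted p = 0.252 from edgeR's test).

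Id2 and Id3 did not separate the groups. Id2, an Id protein common in neurons, had 1875, 1915 and 1900 normalized counts in shYthdf2 libraries 1, 2 and 4 and 1417, 2320 and 1479 in those of shCtrl. The shYthdf2 values were nearly equal, and all 3 lay inside the range of shCtrl. Fitting gave a log2 ratio of 0.13 (SE 0.19; adjusted p = 0.750). Id3, which like Id1 is used as a BMP readout, had 237, 204 and 239 normalized counts in shYthdf2 and 113, 389 and 141 in shCtrl. The shCtrl values spanned a ratio of 3.46 from lowest to highest, against 1.17 in shYthdf2, and shCtrl library 2 alone was above the shYthdf2 range. Its log2 ratio was 0.08 (SE 0.44; adjusted p = 0.939). The same-number differences were 1.07 and 0.76 on the log2 scale for numbers 1 and 4 and -0.93 for number 2.

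The Id genes turned on shCtrl library 2 more than on any other library. Without it, all 4 Id genes passed the adjusted threshold in edgeR's test, with log2 ratios of 1.41 for Id4 (adjusted p = 0.00287), 1.14 for Id1 (0.0303), 0.84 for Id3 (0.0216) and 0.39 for Id2 (0.0173). None of the other 6 genes did, and the share over all genes rose to 18.3%. With shCtrl library 2 left out, shCtrl keeps only libraries 1 and 4, which lie close together, so these adjusted p-values may understate the spread. Without either library of number 2, Bmp4 and Bmpr1a passed as well as the Id genes, which is 6 of 10, but so did 52.7% of all genes. In that fit the libraries that remain in a group are the pair that lie close together. With a term for number 2 in the fit, Id4 was the only 1 of the 10 that passed (adjusted p = 0.027), where 22.1% of all genes passed. Id4 was also the only 1 that passed with DESeq2 (7.67% of all genes) and without a filter on low counts (1.98%). None of the 10 passed with RLE factors (0.61%), library size alone (0.627%), limma-voom (0.139%), the replicate block (1.35%), a minimum of 10 counts per library (0.862%) or without shYthdf2 library 2 (4.7%).

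**Figure D2:**
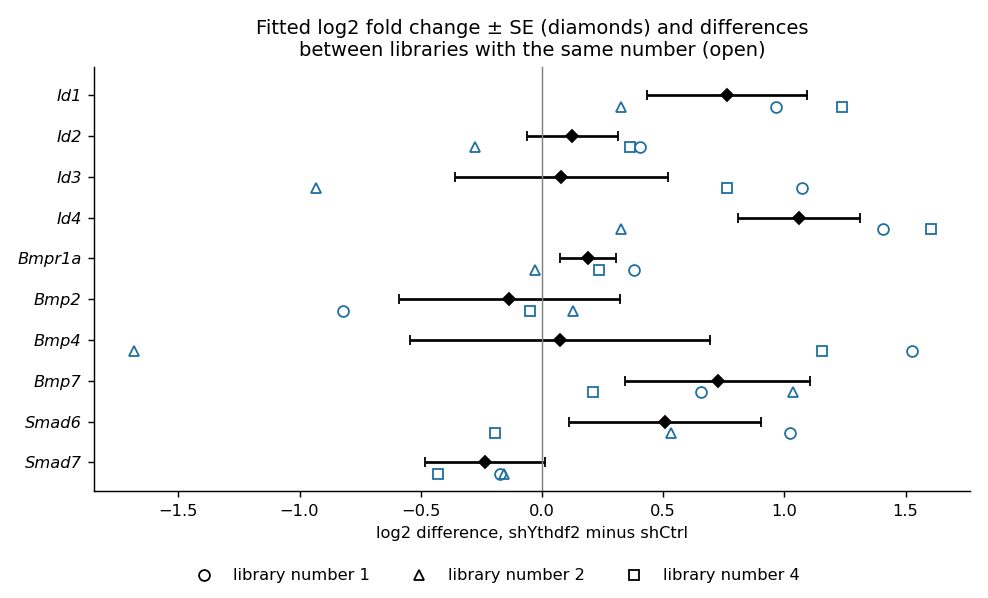
Log2 differences between shYthdf2 and shCtrl for the 10 genes (horizontal axis), with the fitted log2 ratio ± standard error as black diamonds. Open markers are the differences between libraries with the same number, and for Id2, Id3, Bmp4 and Bmpr1a the difference of number 2 lies below 0 while those of numbers 1 and 4 lie above it.

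The promoter of Id4 is shown because Id4 carried the largest difference, beside that of Bmp4, a ligand gene whose fitted log2 ratio was nearest to 0 of the 10. Of the 10 genes, 6 had a promoter in the RefSeq table for GRCm38.p6 (Bmp4, Bmpr1a, Smad6, Id2, Id3 and Id4). The 250 bases before the start of transcription were searched on both strands for GGCGCC, the core of a Smad element in BMP-induced genes and a palindrome. TGACGT, part of the cAMP response element, and CAGCTG, an E-box and also a palindrome, were searched in the same way. GGCGCC occurred once each in the promoters of Id4, Id2 and Bmpr1a, which is 3 of 6, and in 9.59% of 32851 promoters of the same length. CAGCTG occurred in that of Id2 (13.0% of all promoters) and TGACGT in none of the 6 (6.47%). GGCGCC holds only G and C, and the 6 windows held 62.8% to 78.8% G and C against a median of 52.4% over all promoters, so the shares are not matched for base content. The windows of Id2, Id3 and Bmpr1a overlap annotated exons. In the sequences, read 5′ to 3′ along the gene, capitals mark GGCGCC, which begins 148 bases before the RefSeq start of Id4 at 48261116, which lies upstream of the gene start given above from GENCODE. The Id4 window is chr13:48260866-48261115 on the plus strand and the Bmp4 window chr14:46390670-46390919 on the minus strand.
Id4: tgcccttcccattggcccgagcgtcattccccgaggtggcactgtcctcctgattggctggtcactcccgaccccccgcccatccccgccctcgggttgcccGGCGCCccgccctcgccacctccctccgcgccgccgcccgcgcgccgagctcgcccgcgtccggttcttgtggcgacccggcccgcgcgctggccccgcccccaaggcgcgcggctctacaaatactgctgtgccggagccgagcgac
Bmp4: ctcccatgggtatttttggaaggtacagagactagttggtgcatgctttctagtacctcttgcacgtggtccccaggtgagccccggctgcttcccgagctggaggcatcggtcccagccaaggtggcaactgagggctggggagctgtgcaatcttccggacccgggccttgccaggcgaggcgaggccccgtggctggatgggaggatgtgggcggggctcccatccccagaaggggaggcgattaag
The Id4 window held 75.6% G and C and the Bmp4 window 63.2%. A match is a run of letters in this window and not a site shown to be bound.

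The ligands were counted at low depth. Bmp2, a ligand known to stop granule progenitors from dividing, had 7 to 23 reads in a library. It had 7.32, 22.3 and 13.8 normalized counts in shYthdf2 libraries 1, 2 and 4 and 13.3, 20.3 and 14.3 in those of shCtrl. The groups overlapped throughout, and the log2 ratio was -0.13 (SE 0.46; adjusted p = 0.896). The SE was larger than the ratio itself, and what size of difference could be detected at this depth was not computed. Bmp4, a close relative of Bmp2 that signals through the same receptors, had 41.8, 22.3 and 52.0 normalized counts in shYthdf2 and 14.2, 72.7 and 23.1 in shCtrl. Number 2 was lowest in shYthdf2 and highest in shCtrl. Its log2 ratio was 0.08 (SE 0.62; adjusted p = 0.960), while the same-number differences were 1.53, -1.68 and 1.16 for numbers 1, 2 and 4.

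Bmp7, a ligand of another subfamily made in meninges and choroid plexus, had 36.6, 62.0 and 25.5 normalized counts in shYthdf2 libraries 1, 2 and 4 and 23.1, 30.0 and 22.0 in the shCtrl libraries. Each shYthdf2 library was above the shCtrl library with its number, by 0.65, 1.03 and 0.21 on the log2 scale, though shYthdf2 library 4 lay below shCtrl library 2. Its log2 ratio was 0.73 (SE 0.38; adjusted p = 0.334), and it was 0.31 without shYthdf2 library 2.

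Bmpr1a, the type I receptor through which Bmp2 and Bmp4 signal, varied little between libraries. It had 924, 858 and 861 normalized counts in shYthdf2 libraries 1, 2 and 4 and 711, 875 and 731 in those of shCtrl. The groups overlapped through shCtrl library 2 alone. For Bmpr1a the log2 ratio was 0.19 (SE 0.12; adjusted p = 0.407), and it was 0.29 without shCtrl library 2.

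The inhibitory Smads had fitted ratios of opposite sign, neither past the threshold. Smad7, which blocks receptors of the BMP and TGF-beta branches, had 161, 219 and 127 normalized counts in shYthdf2 libraries 1, 2 and 4 and 182, 244 and 171 in shCtrl. Each shYthdf2 library was below the shCtrl library with its number, by less than the spread between libraries of a group. For Smad7 the log2 ratio was -0.23 (SE 0.25; adjusted p = 0.639), and it was -0.06 without shCtrl library 2 and -0.47 without shYthdf2 library 2. Smad6, which acts mainly on the BMP branch, had few reads, 16, 19 and 9 in shYthdf2 libraries 1, 2 and 4 and 9, 13 and 10 in shCtrl, which after scaling gave a log2 ratio of 0.51 (SE 0.40; adjusted p = 0.521) with overlapping groups. With 1 library left out it lay between 0.32 and 0.74.

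Levels of different genes were compared as normalized counts per kilobase of exon, and the order in shCtrl was Id2 (713), Bmpr1a (122), Id3 (120), Id4 (81.2), Smad7 (44.0), Id1 (42.7), Bmp4 (16.3), Bmp7 (6.23), Bmp2 (4.49) and Smad6 (3.28). Id2 stood far above the rest in every library. In shYthdf2 the order was Id2 (778), Id4 (169), Bmpr1a (139), Id3 (127), Id1 (72.8), Smad7 (37.4), Bmp4 (17.2), Bmp7 (10.3), Smad6 (4.65) and Bmp2 (4.07). By group mean, Id4 stood below Id3 in shCtrl and above it in shYthdf2. Id3 had 214 ± 152 (SD, n = 3) normalized counts in shCtrl, with 389 in library 2 and 113 and 141 in libraries 1 and 4. The order of Id4 and Id3 in shCtrl lay within that spread. Id3 and Bmpr1a were neighbours that did not differ beyond their spread in shCtrl, nor did Smad7 and Id1. Id4, Bmpr1a and Bmp4 each overlap a gene on the opposite strand, and whether counting used strand is not given in the sources used here. These overlapping genes had at most 4 reads in a library.

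The pattern over the 6 libraries was compared between genes by Pearson's r of log2 normalized counts, as a description. Among all genes with a symbol and a mean of at least 100 normalized counts, those most like Id4 were Phf24, Garnl3 and Osbpl6, with r of 0.999, 0.998 and 0.997. For Id1 they were Srek1ip1, Jrkl and Gm43672, with r of 0.99 each. For Id2 they were Zfp324, Syt1 and Olig1, an oligodendrocyte lineage factor, with r of 0.997, 0.995 and 0.994, and for Id3 they were Cbx8, Rab33b and Ccng2, with r of 0.99 each. For the other 6 genes they were 1110012L19Rik, Saysd1 and Slbp (Bmp2), Inava, Hcls1 and Pfkl (Bmp4), Pbx3, Dpysl3 and Gm12258 (Bmp7), Siah1a, Sapcd2 and Lmo3 (Bmpr1a), Ap1s2, Vma21 and Nkrf (Smad6), and Rtraf, Zfp580 and Ndufs6 (Smad7). Within the 10 genes, Id2 and Id3 had an r of 0.98, Bmp4 and Id3 of 0.93, Id1 and Id4 of 0.91 and Id3 and Id4 of 0.67. Only 6 points enter each value, and libraries 1 and 4 of a group nearly coincide.

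The rest of the pathway was read from lists of ligands, antagonists, receptors, Smads, Smad cofactors and BMP-induced genes, which hold 90 genes besides the 10. Of these, 65 could be tested, 40 with a higher and 25 with a lower fitted level in shYthdf2. Their median log2 ratio was 0.09. The adjusted threshold was passed by 1 of the 65, Ski, which fell. An unadjusted p under 0.05 was reached by 3 higher and 9 lower genes of the 65. Over all genes it was reached by 20.1%, 1635 higher and 1826 lower. The groups did not overlap for 14, or 21.5%, below the 26.0% of all genes.

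**Figure D3:**
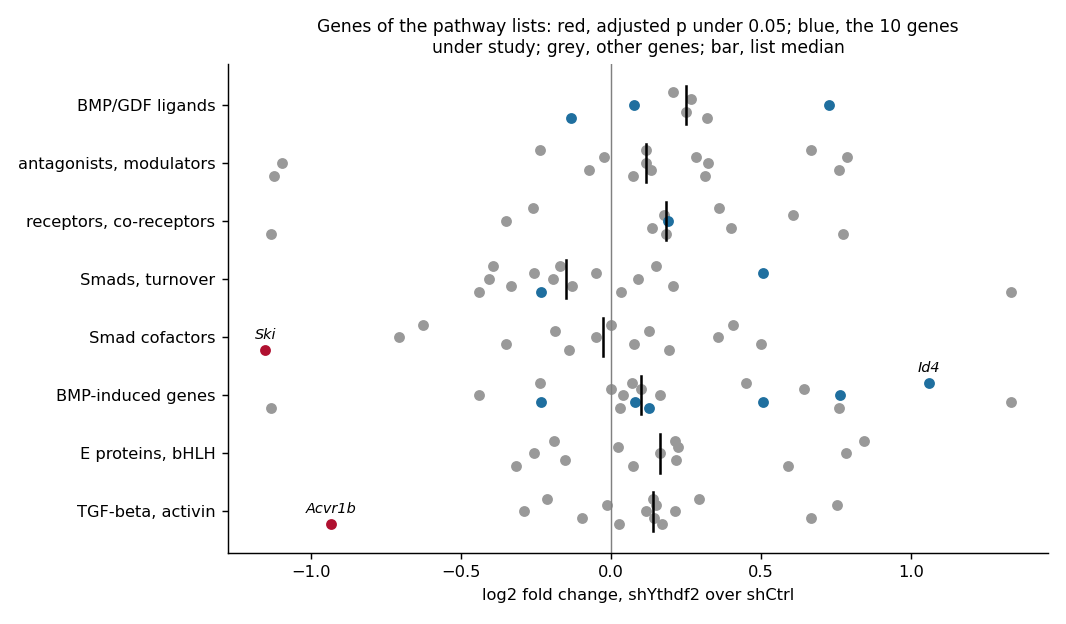
Log2 ratios of the tested genes of the pathway lists (horizontal axis), 1 point per gene and 1 row per list, with the list median as a bar. Ski and Acvr1b, in red, are past the adjusted threshold at -1.15 and -0.93, the 10 genes are blue and Id4 is at 1.06.

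Ski, a repressor that binds Smads and blocks their targets, had 4497, 5388 and 4492 normalized counts in shYthdf2 libraries 1, 2 and 4 and 11879, 8918 and 11126 in the shCtrl libraries. Every shYthdf2 library was far below every shCtrl library. Its log2 ratio was -1.15 (SE 0.14; adjusted p = 0.0430 from edgeR's test), which leaves 45.0% of the shCtrl level. It passed under every alternative fitted to all 6 libraries, and its adjusted p-value was 0.24 or more when number 1 or 4 of either group was left out, where 0 of all genes passed. Tob1 and Tob2, antiproliferative proteins that repress Smad targets and bind the deadenylation machinery, did not pass in edgeR's test. Their log2 ratios were -0.71 (adjusted p = 0.0720) and -0.63 (adjusted p = 0.0502), and with the replicate block, which pairs libraries with the same number, Tob1 passed (adjusted p = 0.0417). DESeq2 called both, with adjusted p = 0.00218 for Tob1 and 8.03e-05 for Tob2. Both also passed without a filter (0.0167 and 0.0165) and with a term for number 2 (0.00445 and 0.00925), and Tob2 with a minimum of 10 counts per library (0.0463). Of all genes, 1.35% passed with the replicate block, 7.67% with DESeq2, 1.98% without a filter, 22.1% with a term for number 2 and 0.862% with that minimum. The listed repressor Zeb2 had a log2 ratio of 0.41 with overlapping groups.

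Of the 22 secreted antagonists and modulators, 15 were tested and 0 passed the adjusted threshold in edgeR's test. There were 4 at an unadjusted p under 0.05, against 20.1% of all genes. Nbl1, a secreted BMP antagonist, had 61.7, 97.9 and 61.6 normalized counts in shYthdf2 and 197, 124 and 161 in shCtrl (log2 ratio -1.12, SE 0.27, adjusted p = 0.0965). Crim1, which tethers BMPs at the cell surface, had a log2 ratio of -1.10 (adjusted p = 0.107). Fstl5, a follistatin-like protein, and Grem1, the antagonist Gremlin, had log2 ratios of 0.79 (adjusted p = 0.124) and 0.76 (adjusted p = 0.234). The groups did not overlap for any of these 4 genes, lower in shYthdf2 for Nbl1 and Crim1 and higher for Fstl5 and Grem1. That is 26.7% of the 15, against 26.0% of all genes. DESeq2 called 3 of the 15, Nbl1, Crim1 and Fstl5, and 7.67% of all genes.

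Among 12 receptors and co-receptors other than Bmpr1a, 10 were tested and 0 passed in edgeR's test. There were 3 at an unadjusted p under 0.05, against 20.1% of all genes. DESeq2 called 0 of the 10, and 7.67% of all genes. The type I receptor Acvr1 had 879 ± 81.9 (SD, n = 3) normalized counts in shYthdf2 and 1120 ± 53.9 (SD, n = 3) in shCtrl, a log2 ratio of -0.35 (adjusted p = 0.144). The type II receptors Acvr2a and Bmpr2 had log2 ratios of 0.40 (adjusted p = 0.218) and 0.18 (adjusted p = 0.295), and Bmpr1b one of 0.61 (adjusted p = 0.299). Besides Acvr1 and Acvr2a, the gene with an unadjusted p under 0.05 was Bambi, a decoy receptor that BMPs induce, with a mean of 9.62 normalized counts in shYthdf2 and 21.2 in shCtrl (log2 ratio -1.13, adjusted p = 0.165), named after its values were seen. The groups did not overlap for Acvr1, Bmpr2 and Bambi, which is 30% of the 10, against 26.0% of all genes. Of the 14 ligands besides the 3 examined, 4 passed the filter, none with an unadjusted p under 0.05. They were Bmp6 with a log2 ratio of 0.21, Bmp5 with 0.25, Gdf10 with 0.27 and Gdf11 with 0.32. Per kilobase of exon, the mean shCtrl levels of Bmp6 and Bmp5 were 207 and 61.6 normalized counts, above those of Bmp2, Bmp4 and Bmp7.

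Among 14 Smads and turnover genes other than Smad6 and Smad7, 0 passed in edgeR's test. There were 2 at an unadjusted p under 0.05, against 20.1% of all genes. The phosphatase gene Ctdsp2 had a log2 ratio of -0.39 (adjusted p = 0.0838) and the ubiquitin ligase gene Stub1 one of -0.26 (adjusted p = 0.215). DESeq2 called 1 of the 14, Ctdsp2 (adjusted p = 0.0100), and 7.67% of all genes. Smad4, the Smad shared by both branches, and the phosphatase gene Ctdspl had log2 ratios of -0.19 and -0.33. Of the 18 other genes known to be induced by BMPs, 13 were tested and 0 passed in edgeR's test or with DESeq2. In edgeR's test 2 had an unadjusted p under 0.05, against 20.1% of all genes. The groups stood apart for 2 of the 13, or 15.4%, against 26.0% of all genes. Besides Grem1, the listed genes Smad9, Hey1 and Atoh8 had log2 ratios of -0.44, 0.16 and 0.45, with adjusted p-values from 0.421 to 0.654. With 1 library left out, the ratio of Atoh8 lay between 0.07 (without shYthdf2 library 2) and 1.13 (without shCtrl library 2).

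The partners that Id proteins oppose were listed as 15 E protein and bHLH genes, of which 13 were tested and 0 passed in edgeR's test. Only 1, Neurod1, had an unadjusted p under 0.05, against 20.1% of all genes. Neurod1, a bHLH factor of granule neurons, had 15171 ± 319 (SD, n = 3) normalized counts in shYthdf2 and 18885 ± 345 (SD, n = 3) in shCtrl, a log2 ratio of -0.32 (adjusted p = 0.124) with separate groups. Neurod1 passed with DESeq2 (adjusted p = 0.0132) and with a term for number 2 (0.0120), where 7.67% and 22.1% of all genes passed. Neurod2 had a log2 ratio of 0.22, Nhlh2 one of 0.16 and the E protein gene Tcf3 one of -0.19. In the TGF-beta and activin branch, which signals through Smad2 and Smad3, 1 of 15 tested genes passed. Acvr1b, the activin type I receptor ALK4, fell, with 2980 ± 103 (SD, n = 3) normalized counts in shCtrl and 1562 ± 132 (SD, n = 3) in shYthdf2, a log2 ratio of -0.93 (SE 0.10; adjusted p = 0.0299). As for Ski, its adjusted p-value was 0.203 or more when number 1 or 4 of either group was left out. The listed genes Tgfbr3, Tgfb1 and Tgfbr1 had log2 ratios of 0.29, 0.67 and 0.21, with adjusted p-values from 0.335 to 0.515. Tgfb1 had a ratio of 0.34 without shCtrl library 1 and of 1.46 without shCtrl library 2 (adjusted p = 0.0189), where 18.3% of all genes passed.

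Several of the 10 genes are known from cell types other than granule neurons, so markers of cell types were summed in each library. Which cells of these cultures expressed the 10 genes was not measured. Markers of granule neurons were abundant, with a sum over 12 genes of 202072 to 216955 normalized counts in shYthdf2 and 213247 to 220680 in shCtrl. The 12 markers of astrocytes and Bergmann glia summed to 15052 to 15899 in shYthdf2 and to 11591 to 18181 in shCtrl, where the highest was library 2. For the 10 markers of the oligodendrocyte lineage the sums were 15892 to 20829 and 5859 to 20944, again highest in shCtrl library 2. All 10 had a higher fitted level in shYthdf2 and 0 passed the adjusted threshold in edgeR's test. Only 1 had an unadjusted p under 0.05, against 20.1% of all genes. Within shCtrl, the glial sums were highest in library 2, as was each of the 10 genes. The part of glial cells in the differences was not tested.

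Between libraries with the same number, the glial sums differed as follows. For number 2 the astrocyte sum was 15052 in shYthdf2 and 18181 in shCtrl and the oligodendrocyte sum 20829 and 20944, while Id4 had 559 and 446 normalized counts. For number 1 the astrocyte sums were 15899 and 11611 and the oligodendrocyte sums 15892 and 6105, and for number 4 they were 15694 and 11591 and 16355 and 5859. Id4 had 681 and 256 normalized counts for number 1 and 715 and 235 for number 4, so both the oligodendrocyte sum and Id4 were far higher in shYthdf2 for these numbers. Markers of endothelial and mural cells, 12 genes of which Cldn5, Tie1 and Kcnj8 were under 10 reads in every library, summed to 687 to 1643 in shYthdf2 and 527 to 1017 in shCtrl. Those of fibroblasts and meninges, 10 genes, summed to 5284 to 11517 and 3403 to 9829. Both were highest in the libraries of number 2. So were Bmp7, Bmp2, Smad6, Smad7, Id1 and Id2 in each group, but Bmp4, Bmpr1a, Id3 and Id4 in shCtrl alone. The 10 microglial markers, of which P2ry12 was under 10 reads in every library, summed to 534 to 1437 and 313 to 1088.

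**Figure D4:**
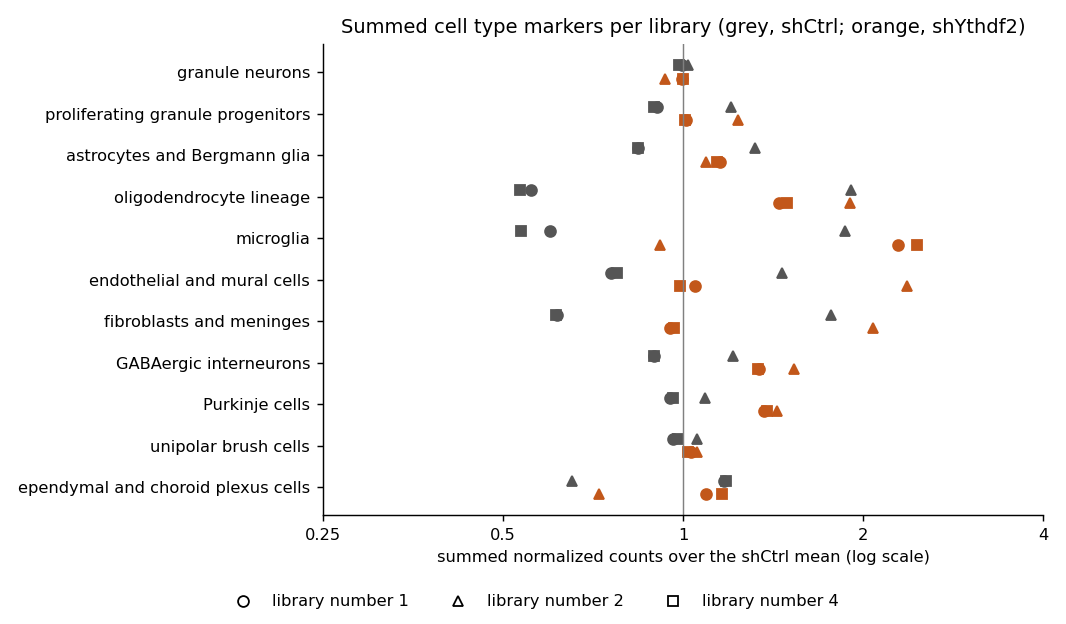
Summed normalized counts of the marker lists in each library, divided by the shCtrl mean of that list (horizontal axis, log scale), with shCtrl in grey, shYthdf2 in orange and the library number as the marker shape. The sums of granule neuron markers lie close to 1 in all 6 libraries, while those of oligodendrocyte, microglial and fibroblast markers are lowest in shCtrl libraries 1 and 4.

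Sums for some other neurons were also higher in shYthdf2, with 0 of their markers past the adjusted threshold in edgeR's test. The 10 markers of GABAergic interneurons, of which Npy was under 10 reads in every library, summed to 17902 to 20543 in shYthdf2 and 11973 to 16219 in shCtrl, and the 10 Purkinje cell markers to 4446 to 4686 and 3098 to 3546, with no overlap of the groups for either. Of the interneuron markers tested, 8 were higher and 1 lower in shYthdf2, but of the Purkinje markers 5 were higher and 4 lower. The 8 unipolar brush cell markers summed to 14343 to 14817 and 13542 to 14864. Markers of proliferating progenitors, 10 genes of which Gli1 was under 10 reads in every library, summed to 2632 to 3220 and 2332 to 3132. Those of ependymal and choroid plexus cells, also 10 and with Kl under 10 reads in every library, summed to 1829 to 2944 and 1650 to 2983. The 16 immediate-early genes, which neuronal activity induces, summed to 5253 to 8260 in shYthdf2 and 17575 to 63326 in shCtrl, where the lowest was library 2. Of the 15 tested, 14 had a lower fitted level in shYthdf2, and Ier2, Npas4, Nr4a3 and Fosl2 passed the adjusted threshold in edgeR's test. Under the replicate block 7 of the 15 passed, without Nr4a3 (adjusted p = 0.0519) and Fosl2 (0.0525). DESeq2 called 12 and limma-voom 0. Within shCtrl, library 2, where each of the 10 genes was highest, had the least immediate-early RNA. Within shYthdf2, library 2 also had the least, 5253 against 8189 and 8260. There Id4, Id3, Bmp4 and Bmpr1a were lowest within shYthdf2, while Bmp2, Bmp7, Smad6, Smad7, Id1 and Id2 were highest. The part of immediate-early RNA in the differences of the 10 genes was not tested.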

How the data were processed

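RNA-seq libraries of cultured GCs infected with shYthdf2 or shCtrl lentivirus (3 libraries each) were compared. By the methods of the study, the authors filtered reads, aligned them on GRCm38 (HISAT, TopHat2) and used HTSeq for gene counts. The deposited table holds whole-number counts without normalization. The submitters' processing notes name mm9 and Bowtie 0.12.2 instead, and the labels and the methods name different library kits. Only gene identifiers enter the analysis, and positions come from the annotation of GRCm38.

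Groups and numbers were taken from the library names. Counts were tested with edgeR 4.0.16 (filterByExpr with minimum count 10 and minimum total count 15, TMM normalization, quasi-likelihood test) in R 4.3.3, adjusted over 17214 genes by the Benjamini-Hochberg method. The tested genes held 99.8% of the counts. Normalized counts are TMM-scaled, and same-number differences used a pseudocount of 0.5. On simulated data with 194 changed genes among 16842, at a log2 change of 2, edgeR found 85.1%, and 6.25% of 176 calls were unchanged genes. The simulated libraries were drawn independently, without the likeness of libraries 1 and 4. Their change was also larger than the log2 ratio of 1.06 for Id4, the largest of the 10. These shares therefore do not describe the 10 genes. Alternatives used RLE factors, library size alone, DESeq2 1.42.0, limma-voom (limma 3.58.1), other filters, the replicate block, a term for number 2, and libraries left out. The correlation of deviations from the group means between same-numbered libraries was 0.252, 0.360 and 0.322 for numbers 1, 2 and 4. Libraries 1 and 4 of a group nearly coincide, so their values largely follow from number 2. They cannot show that 1 pairs with 1 or 4 with 4. In median absolute log2 difference, shYthdf2 library 1 lay 0.278 from shCtrl library 1 and 0.265 from shCtrl library 4. For shYthdf2 library 4 these were 0.262 and 0.255. The replicate block and same-number differences pair libraries by number alone, and the main fit uses no pairing.

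Depth (17246821 to 21546595 counts) limits genes with few reads. The 10 genes and all lists were chosen with earlier results of these data known. Named besides the 10 were list genes past the adjusted threshold or else up to 4 per list with the smallest p-values and a mean of 50 normalized counts or more, and the 3 genes (mean of 100 or more) most like each of the 10.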

Additional observations from a re-analysis of the deposited data

How the results depend on the processing

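The 10 genes had 0 past the adjusted threshold in edgeR's test (1 at an unadjusted p under 0.05). The number past it was 1 with DESeq2, 1 without a filter, 1 with a term for number 2 and 6 without both libraries of number 2, and 0 to 4 with 1 library left out. The number with an unadjusted p under 0.05 was 2 with DESeq2 (19.8% of all genes), limma-voom (20.5%), library size alone (20.2%), no filter (12.9%), at least 10 counts in every library (21.3%) or the replicate block (31.6%), 3 with a term for number 2 (39.5%), 6 without both libraries of number 2 (57.6%), and 1 to 5 with 1 library left out (11.2% to 34.0%). Among the other pathway genes, of which the main fit tested 65, 1 passed. With DESeq2 it was 7, without a filter 5, with at least 10 counts in every library 2, with the replicate block 2, with a term for number 2 it was 15, without both libraries of number 2 it was 38, and with 1 library left out 0 to 11. Over all genes 104 passed (0.604%), and 1321 did with DESeq2 (7.67%), 24 with limma-voom (0.139%) and 639 without a filter (1.98%). It was 131 with at least 10 counts in every library (0.862%), 232 with the replicate block (1.35%) and 3799 with a term for number 2 (22.1%). Without both libraries of number 2 it was 9186 (52.7%), and with 1 library left out 0 to 3239 (0% to 18.3%). The cause was not tested, except that fewer libraries enter some fits. With the replicate block Tob1 passed, Nr4a3 and Fosl2 no longer did, and no call changed for the 10 genes, the other named list genes, Bambi, Ier2 or Npas4.

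The direction turned only with 1 library left out, where the log2 ratio ranged from -0.60 to 0.18 for Bmp2, from -0.32 to 1.06 for Bmp4, from -0.0084 to 0.39 for Id2, from -0.23 to 0.84 for Id3 and from -0.12 to 0.36 for Bmp6. For Id4 it ranged from 0.89 to 1.41 and for Id1 from 0.51 to 1.14. Bmp2 and Smad6, with under 25 reads in every library, were not tested when at least 10 counts were required in every library, and DESeq2 gave them no adjusted p-value.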
